A study of Mus musculus with 24 samples.

Results

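Peripheral blood mononuclear cells (PBMC) are the white cells of blood that carry a single round nucleus, chiefly T cells, B cells, NK cells and monocytes, and such preparations can also hold platelets, red cells and granulocytes. Total RNA from mouse blood PBMC was sequenced in 9 libraries, 3 each with the treatment labels ct, WT and Y, and the comparison described here sets the 3 Y libraries against the 3 WT libraries. These 6 are 6 of the 24 samples of the series, and its samples outside these 9 are surface RNA profiles of mouse blood cell types. All 9 PBMC samples carry the genotype label wild type, and neither the labels nor the study's methods say what the treatments ct, WT and Y were, so the letters are kept as names. No source gives strain, age, number of animals, or whether libraries 1 to 3 of a group came from separate animals, so p-values measure only the spread between these libraries, which may be technical. Of 55335 genes listed, 11635 had enough counts to be tested, and all of them entered the comparison.

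Totals ranged from 7800274 to 9055761 counts in WT and from 4686387 (Y1) to 7481923 in Y, and Y1, the shallowest, also stood apart from the other 8 libraries on the first principal component. WT3 had the lowest value on the second, -25.3, beside -5.37 for WT1 and -12.8 for WT2. A single ribosomal RNA gene, CT010467.1, took 51.4 to 57.00% of the counts in WT and 51.2 to 52.2% in Y. Levels are given as normalised CPM, with that RNA in the total. These are the counts of a gene in every 1000000 of the library total after its scaling by TMM, a factor for each library. The factor was 0.783 for WT3 and 0.972 to 1.10 for the other libraries. The mononuclear label fits its markers in part: the B cell gene Cd79a held 38.1 to 46.7 CPM over the 6 libraries, the T cell gene Cd3e 38.8 to 47.8 CPM, and the monocyte gene Csf1r 29.4 to 42.4 CPM. Beside them stood red cell RNA, with beta globin Hbb-bs at 1676 to 1874 CPM, platelet RNA, with Ppbp at 72.00 to 85.6 CPM, and neutrophil RNA, with Csf3r at 42.5 to 52.8 CPM. The early granule genes Elane and Mpo were at 0 to 3 counts in every one of the 6 libraries. In bulk RNA, fewer cells of a type and less RNA per cell cannot be told apart, and this holds for every result below.

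Immediate early genes are switched on within minutes of a stimulus without new protein synthesis. They encode transcription factors such as the AP-1 proteins Fos and Jun, and feedback regulators such as the dual specificity phosphatases, which switch off MAP kinases. NF-kB, released when its inhibitor Nfkbia is degraded, drives a partly overlapping set that includes its own inhibitors. Neutrophils, the granulocytes that arrive first at infection, carry S100a8 and S100a9 (calprotectin) as their leading cytosolic proteins and store proteases and metal-binding proteins in granules.

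The genes lower in Y than in WT included 20 of 39 tested immediate early genes and 9 of 32 tested NF-kB feedback and cytokine genes, and those higher in Y included 10 of 15 tested neutrophil genes. At an edgeR adjusted p below 0.05, 95 of 11635 genes (0.817%) were lower in Y and 51 (0.438%) were higher, with log2 fold changes from -2.27 to -0.36 and from 0.35 to 2.41. Both extremes were genes of few counts, Hist1h2bk with 7, 0 and 9 counts in Y and Vcan with 7, 3 and 2 counts in WT, so these folds are imprecise. The median gene changed by 0.00 on the log2 scale. Leaving out 1 library at a time gave 26 to 112 lower and 26 to 36 higher genes. The counts fell by more than 1.5 times without WT2 (50 lower, 31 higher), WT3 (47 and 33), Y1 (49 and 33), Y2 (43 and 30) or Y3 (26 and 26). In every alternative in which they were tested, 22 of the lower and 21 of the higher genes were called. The 22 were Jun, Fos, Per1, Dusp1, Dusp2, Sik1, Zfp36l2, Gadd45b, Ppp1r15a, Nr4a3, Creb5, Nfkbia, Tnfaip3, Cxcr4, Ddit4, Tsc22d3, Txnip, Hspa1b, Neat1, H2-Q10, Atg2a and Gm37352. The 21 were S100a8, S100a9, S100a6, Lcn2, Mmp8, Mmp9, Mmp25, Retnlg, Cd177, Cxcr2, Lrg1, Anxa1, Alox5ap, Pygl, Cd300lf, Lilr4b, Fkbp5, Top2a, Gda, Rgs18 and Thbs1. Every other call was lost in at least 1 alternative.

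**Figure D1:**
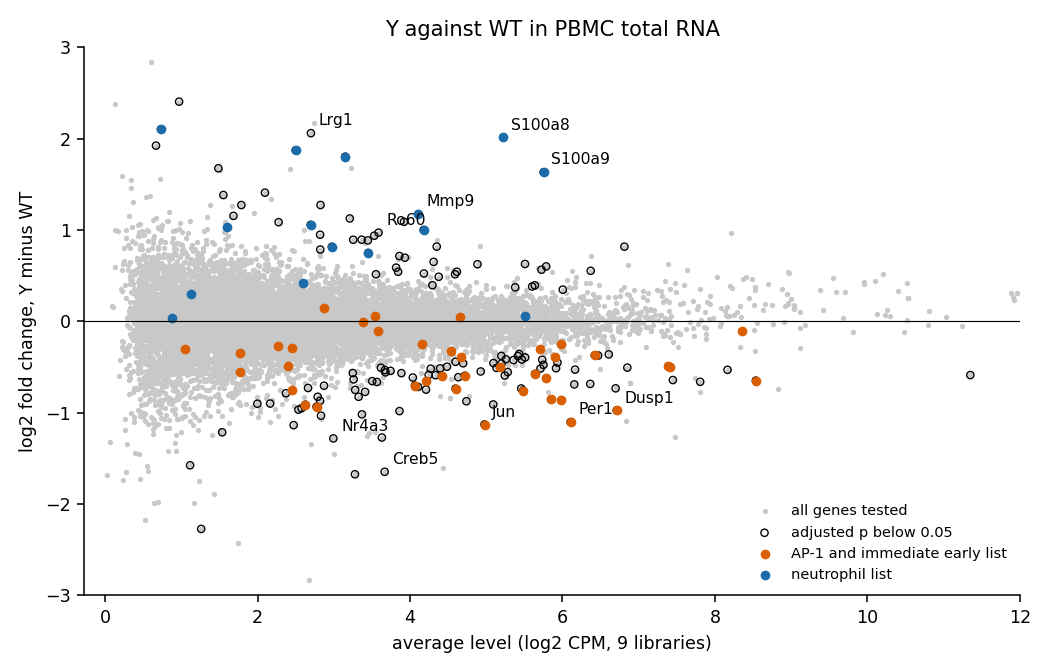
Log2 fold change of Y minus WT against the average log2 CPM of each of the 11635 genes, with open circles for the 146 genes called. Members of the AP-1 and immediate early list lie mostly below 0 and members of the neutrophil list above it, S100a8 and S100a9 standing clear of other genes of their level; 20 genes lie beyond the axes.

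The promoters of genes that led each direction are shown first, since the lower and the higher genes were compared for letters they share. They were the 4 lower and 3 higher genes with the smallest p that have a RefSeq promoter, plus Creb5, the lower gene with the largest fold among those above 10 CPM that has one. Each run is the 250 bases before the RefSeq start on the gene's strand (GRCm38.p6). The outermost start of the GENCODE gene lies elsewhere for some genes, 53656 bases away for Dusp1, 3732 for Per1, 513 for Lcn2, 93 for S100a8 and 33 for Creb5, and motif distances are counted from the RefSeq start. Jun lies at chr4:95052223-95052472, minus strand, Per1 at chr11:69098699-69098948, plus, Dusp1 at chr17:26508473-26508722, minus, and Nfkbia at chr12:55492648-55492897, minus. Creb5 lies at chr6:53287053-53287302, plus, S100a8 at chr3:90668821-90669070, plus, S100a9 at chr3:90695722-90695971, minus, and Lcn2 at chr2:32387740-32387989, minus. Capitals mark exact matches, on either strand, to the CRE letters TGACGTCA (bound by CREB and ATF proteins), AP-1 letters TGANTCA, E-box CACGTG (bound by clock and other factors), C/EBP letters TTGCNNAA, and to the consensus sites named NF-kB and CArG (bound by SRF).
Jun: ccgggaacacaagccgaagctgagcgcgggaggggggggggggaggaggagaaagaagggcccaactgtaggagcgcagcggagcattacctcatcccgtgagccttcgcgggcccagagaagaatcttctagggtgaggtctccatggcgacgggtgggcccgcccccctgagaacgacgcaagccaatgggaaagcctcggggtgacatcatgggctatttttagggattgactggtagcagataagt
Per1: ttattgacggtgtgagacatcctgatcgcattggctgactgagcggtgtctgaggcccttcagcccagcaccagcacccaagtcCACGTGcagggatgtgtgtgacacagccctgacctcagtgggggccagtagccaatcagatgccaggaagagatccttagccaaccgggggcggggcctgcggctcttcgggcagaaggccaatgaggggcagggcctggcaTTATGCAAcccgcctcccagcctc
Dusp1: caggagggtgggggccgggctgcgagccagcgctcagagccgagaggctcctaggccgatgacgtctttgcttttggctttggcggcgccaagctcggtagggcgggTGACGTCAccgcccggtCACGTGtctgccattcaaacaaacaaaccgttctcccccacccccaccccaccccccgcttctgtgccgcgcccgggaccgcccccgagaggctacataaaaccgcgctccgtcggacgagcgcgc
Nfkbia: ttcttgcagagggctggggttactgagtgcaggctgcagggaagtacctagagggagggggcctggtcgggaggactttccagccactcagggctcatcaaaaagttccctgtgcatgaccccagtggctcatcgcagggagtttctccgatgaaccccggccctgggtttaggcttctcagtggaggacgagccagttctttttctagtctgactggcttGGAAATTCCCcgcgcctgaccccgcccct
Creb5: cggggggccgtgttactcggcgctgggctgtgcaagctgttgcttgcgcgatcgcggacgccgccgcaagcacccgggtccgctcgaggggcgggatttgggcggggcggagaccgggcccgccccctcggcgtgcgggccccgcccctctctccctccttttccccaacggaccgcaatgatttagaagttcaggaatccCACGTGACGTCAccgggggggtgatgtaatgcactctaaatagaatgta
S100a8: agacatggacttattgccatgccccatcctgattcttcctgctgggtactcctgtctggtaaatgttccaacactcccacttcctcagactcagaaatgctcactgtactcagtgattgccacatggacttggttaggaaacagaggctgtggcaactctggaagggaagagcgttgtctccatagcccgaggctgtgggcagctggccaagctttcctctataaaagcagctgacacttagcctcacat
S100a9: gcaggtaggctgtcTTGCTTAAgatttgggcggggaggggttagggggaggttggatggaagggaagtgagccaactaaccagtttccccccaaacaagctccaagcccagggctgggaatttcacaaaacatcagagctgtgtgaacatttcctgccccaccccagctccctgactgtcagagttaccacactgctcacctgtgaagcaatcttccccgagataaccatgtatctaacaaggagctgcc
Lcn2: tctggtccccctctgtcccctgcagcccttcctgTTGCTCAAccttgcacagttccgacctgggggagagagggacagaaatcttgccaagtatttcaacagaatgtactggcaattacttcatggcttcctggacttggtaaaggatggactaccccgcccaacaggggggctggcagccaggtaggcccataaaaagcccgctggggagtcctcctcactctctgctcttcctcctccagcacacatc

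Dusp1 holds a CRE starting 143 bases and an E-box 126 bases before its start, and in Creb5 the E-box at 49 bases and the CRE at 45 bases share 2 letters. Nfkbia holds an NF-kB match at 29 bases, Per1 an E-box at 166 and a C/EBP match at 24, S100a9 a C/EBP match at 236 and Lcn2 one at 216. The printed windows of Jun and S100a8 hold no match to these letters. Of the 61 lower genes with a promoter, 11 (18.03%) held the NF-kB consensus, against 4.53% of the 8016 tested genes with one, 8 (13.1%) held an E-box against 8.75%, 4 (6.56%) a CRE against 2.78%, 3 (4.92%) a CArG box against 1.05%, and 4 (6.56%) C/EBP letters against 7.39%. The 11 with the NF-kB consensus include the close paralogs H2-Q6 and H2-Q7, and the calls of H2-Q6, H2-Q7, Irf1 and Ier3 were lost in each single-library omission. The NF-kB consensus was also in 4 of the 40 higher genes with a promoter (10%), the E-box in 2, the CRE in 1 and the CArG box in 0. Of these 40, 8 (20%) held C/EBP letters, namely Anxa1, Gda, Grcc10, Lcn2, Mmp8, Ngp, Retnlg and S100a9. Matches to AP-1 letters were at 6.56% in the lower genes, 5.00% in the higher and 4.00% in all. The motifs were chosen after the gene groups were known, and a match is a description of letters, not of binding.

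The AP-1 and immediate early list had 41 genes, of which 39 were tested. Of these 20 were lower in Y, 0 were higher and 19 were not called, with a median log2 fold change of -0.50 against 0.00 over all genes. In 30 of the 39 all Y libraries lay below all WT libraries, as in 8.75% of all genes tested. The summed level of the list was 2494 to 2543 CPM in WT and 1711 to 1803 CPM in Y, beside 1886 to 2021 CPM in ct. The 20 calls became 9 without Y3, and 14 to 19 without another of the 6 libraries. Summed monocyte and NK markers, given below, were lower in Y as well, at ratios of 0.841 and 0.821 to WT, and neutrophil markers were higher, and their part in the changes of this list was not tested.

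Among the AP-1 subunits, Jun was at 42.8, 45.9 and 47.9 CPM in WT and 21.2, 22.5 and 18.7 CPM in Y. Every Y library lay below every WT library, and the ratio of Y to WT was 0.457 (log2 fold change -1.13 ± 0.09 SE, edgeR adjusted p = 5.99e-06). Fos, its usual partner, was at 70.03, 67.1 and 70.4 CPM in WT and 43.4, 50.1 and 41.05 CPM in Y (log2 fold change -0.62 ± 0.09 SE, edgeR adjusted p = 0.0012), again without overlap. Junb fell less, from 209 ± 12.6 to 148 ± 8.41 CPM (log2 fold change -0.49 ± 0.09 SE, edgeR adjusted p = 0.0084). Fosb and Jund had log2 fold changes of -0.39 and -0.39 with edgeR adjusted p of 0.053 and 0.06 and were not called. Per length, Fos was the higher of the pair in WT, at 11.1 TPM (the deposited level, scaled by transcript length) against 4.12 TPM for Jun, and in Y the levels were 6.31 and 1.67 TPM.

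Of the factors that act with them, Egr1, a zinc finger factor induced through SRF, was at 21.7, 25.8 and 24.9 CPM in WT and 13.97, 17.4 and 14.1 CPM in Y (log2 fold change -0.66 ± 0.13 SE, edgeR adjusted p = 0.014). Atf3, a stress-induced ATF factor, was at 6.87, 8.61 and 10.2 and 4.15, 4.29 and 4.90 CPM (log2 fold change -0.91 ± 0.18 SE, edgeR adjusted p = 0.019). Cebpb, a C/EBP factor of myeloid cells, went from 30.5 ± 1.87 to 18.3 ± 1.34 CPM (log2 fold change -0.74 ± 0.12 SE, edgeR adjusted p = 0.0035). The groups did not overlap for any of the 3, but the Egr1 call was lost without WT2, WT3, Y1 or Y3, that of Cebpb without Y3, and that of Atf3 by DESeq2 and without any library other than WT1. Ier2, Maff and Csrnp1 were also called lower, at log2 fold changes of -0.57, -0.93 and -0.50. Ier2 was not called without Y3, Csrnp1 not without any 1 of the 6 libraries other than WT1, and Maff neither then nor by DESeq2. Egr3, Srf and Myc were not, with -0.29, -0.01 and 0.06.

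Of the feedback enzymes, Dusp1, a phosphatase of p38 and JNK, was at 141, 140.3 and 142 CPM in WT and 71.6, 71.4 and 72.3 CPM in Y. Within each group these values span less than 3 CPM, and the ratio of Y to WT was 0.508 (log2 fold change -0.98 ± 0.09 SE, edgeR adjusted p = 1.21e-05). Dusp2, a phosphatase of activated lymphocytes and myeloid cells, was at 80.3, 77.1 and 70.6 and 43.4, 45.7 and 37.2 CPM (log2 fold change -0.86 ± 0.10 SE, edgeR adjusted p = 1.64e-04), and Dusp5, which acts on ERK, had a log2 fold change of -0.60. Dusp10, outside the list and named after its value was seen, had -0.46 (edgeR adjusted p = 0.012) and was not called without WT2, Y2 or Y3. Dusp4 at -0.31 was not called. Sik1, a salt-inducible kinase that cAMP signalling induces, was at 80.3, 81.6 and 83.1 CPM in WT and 45.8, 45.3 and 43.6 CPM in Y (log2 fold change -0.86 ± 0.08 SE, edgeR adjusted p = 1.69e-05). Each Y library held less Sik1 than the lowest WT or ct library, ct being at 64.2, 64.6 and 57.9 CPM.

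The list also holds genes that shorten mRNA life or slow growth. The zinc finger proteins Zfp36 and Zfp36l2 bind AU-rich elements and speed mRNA decay. Zfp36l2 was at 457, 451 and 451 CPM in WT and 288, 299 and 279 CPM in Y (log2 fold change -0.65 ± 0.09 SE, edgeR adjusted p = 7.20e-04), and Zfp36 went from 208 ± 7.46 to 147 ± 7.35 CPM (log2 fold change -0.50 ± 0.09 SE, edgeR adjusted p = 0.0054), while Zfp36l1 (-0.25) was not called. Ppp1r15a, which restores translation after stress by dephosphorylating eIF2 alpha, was at 54.3, 60.2 and 63.6 and 37.1, 34.9 and 33.6 CPM (log2 fold change -0.76 ± 0.09 SE, edgeR adjusted p = 2.36e-04). Gadd45b had a log2 fold change of -0.70, Btg2 of -0.37 and the lymphocyte activation marker Cd69 of -0.60, each called lower. The Btg2 call was lost with the replicate block and in each single-library omission, that of Cd69 without WT2, Y1 or Y3, and those of Zfp36, Junb and Dusp5 without Y3. Btg1, Gadd45a, Rgs2 and Trib1 lay between -0.11 and 0.15 and were not called.

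**Figure D2:**
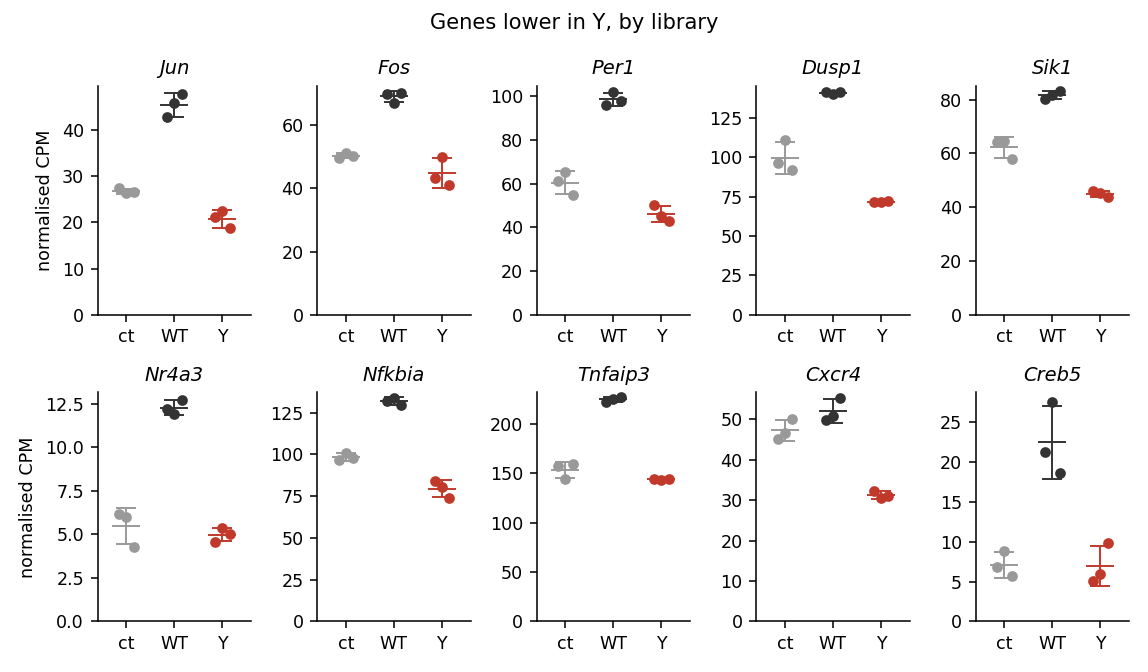
Normalised CPM of 10 genes lower in Y in each of the 9 libraries (points) with the group mean and SD (bars), on axes from 0. In each panel the 3 Y libraries lie below the 3 WT libraries, and for Cxcr4 the ct libraries lie near WT while for Nr4a3 and Creb5 they lie near Y.

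Per1 belongs both to the immediate early genes and to the circadian clock, in which its protein represses its own transcription. It was at 96.2, 102 and 97.99 CPM in WT and 50.2, 45.4 and 42.7 CPM in Y, a ratio of 0.466 (log2 fold change -1.10 ± 0.09 SE, edgeR adjusted p = 5.99e-06). The Y libraries lay far below the WT libraries, and the ct libraries lay between them at 61.4, 65.5 and 54.7 CPM. Of 18 clock genes tested, 3 were called lower and 0 higher: Per1, Nfil3 (log2 fold change -0.90 ± 0.21 SE, edgeR adjusted p = 0.044) and Bhlhe40 (log2 fold change -0.57 ± 0.13 SE, edgeR adjusted p = 0.045), a repressor and target of the clock that stimuli also induce. Nfil3 was at 5.35, 6.21 and 4.67 CPM in WT and 2.84, 2.99 and 2.84 CPM in Y. The core genes were not called, with log2 fold changes of -0.18 for Arntl, 0.21 for Clock, 0.06 for Per2, 0.18 for Cry1, -0.22 for Nr1d2 and 0.12 for Dbp. The list's median was -0.09, and only Per1 was called in each single-library omission.

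The NR4A nuclear receptors are immediate early factors that mark recent antigen receptor or inflammatory signalling. Nr4a3 was at 12.2, 11.9 and 12.7 CPM in WT and 4.58, 5.34 and 5.03 CPM in Y, a ratio of 0.411 (log2 fold change -1.28 ± 0.15 SE, edgeR adjusted p = 2.07e-04). Nr4a1 was at 91.7, 87.02 and 85.4 and 58.3, 65.6 and 58.99 CPM (log2 fold change -0.53 ± 0.09 SE, edgeR adjusted p = 0.0051). Neither overlapped between groups, though the Nr4a1 call was lost without Y3, while Nr4a2 at -1.08 was not called (edgeR adjusted p = 0.39). Of the Kruppel-like factors, Klf6, Klf10, Klf11 and Klf16 were called lower at -0.42, -0.62, -0.64 and -0.54. Klf2, which keeps T cells quiescent, was not called (-0.20, edgeR adjusted p = 0.45), nor were Klf3 and Klf13. In all, 6 of the 14 tested members of the joint list were lower and 0 higher, with a median of -0.42. The count was 1 without Y3, 2 without Y2 and 3 without WT1 or WT3, and DESeq2 called 3.

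Creb5, a CREB-family factor that pairs with Jun, was the CREB or ATF gene with the largest change. It was at 21.3, 27.6 and 18.7 CPM in WT and 5.02, 5.99 and 9.81 CPM in Y, a ratio of 0.319 (log2 fold change -1.65 ± 0.20 SE, edgeR adjusted p = 2.39e-04). Both groups spread widely, and yet the highest Y library lay below the lowest WT library. The ct libraries, at 6.78, 8.84 and 5.69 CPM, lay in the range of Y. Atf4, the factor of the integrated stress response, went from 40.3 ± 2.20 to 30.9 ± 1.29 CPM (log2 fold change -0.38 ± 0.09 SE, edgeR adjusted p = 0.042). With Atf3 these made 3 of 20 tested members, the median being -0.12. Creb1, Atf2, Crebbp and Ep300 had log2 fold changes of 0.17, 0.15, -0.17 and -0.25, and Crem, a cAMP-induced member, had -0.84 with an edgeR adjusted p of 0.4. Creb5 alone was called in every single-library omission.

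NF-kB feedback and inflammatory cytokine genes showed 9 lower and 1 higher of 32 tested, with 22 not called and a median of -0.37. The summed level of the list was 899 to 904 CPM in WT and 676 to 699 CPM in Y, with ct at 708 to 734 CPM, nearer to Y. The marker sums given above, lower for monocytes and NK cells and higher for neutrophils, move with this list too, and their part in it was not tested. Another 14 of the 46 listed, among them Il6, Il10, Il12b and Csf2, had too few counts to test. The inhibitor Nfkbia was at 132, 134 and 129.8 CPM in WT and 84.01, 80.6 and 73.96 CPM in Y (log2 fold change -0.73 ± 0.08 SE, edgeR adjusted p = 1.42e-04), and Tnfaip3, the ubiquitin-editing enzyme A20 that stops NF-kB signalling, was at 222, 225 and 227 and 144, 143 and 144 CPM (log2 fold change -0.64 ± 0.08 SE, edgeR adjusted p = 4.15e-04). Both sets of libraries were tight and did not overlap. The further inhibitors Nfkbiz, Nfkbid and Nfkbie fell by 0.56, 0.66 and 0.59 on the log2 scale, and all 3 calls were lost without Y3. The Nfkbid call was also lost by DESeq2 and without Y2, and that of Nfkbie without WT1, WT2 or Y1. Among the subunits Rel went from 66.1 ± 0.397 to 47.5 ± 3.56 CPM (log2 fold change -0.48 ± 0.09 (SE), edgeR adjusted p = 0.0078; not called without Y2), while Nfkb1 (0.01), Nfkb2 (-0.40) and Relb (-0.18) were not called.

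Of the list's secreted products, the chemokine Ccl4 was at 2.95, 3.93 and 3.11 CPM in WT and 1.31, 0.911 and 1.16 CPM in Y, the latter resting on 6, 7 and 9 counts (log2 fold change -1.58 ± 0.33 SE, edgeR adjusted p = 0.023). The Ccl4 call was lost without WT2, WT3, Y1, Y2 or Y3. Tnf was at 9.27, 9.37 and 8.91 and 6.33, 6.25 and 6.32 CPM and Il1b at 23.6, 17.99 and 18.8 and 16.6, 14.8 and 14.3 CPM. Neither overlapped between groups, but neither was called, with edgeR adjusted p of 0.063 and 0.16. Cd83, a marker of activated antigen-presenting and B cells, had a log2 fold change of -0.87 and Ier3 of -0.79, both called. The Cd83 call was lost by DESeq2 and without WT2, WT3, Y1 or Y3, and that of Ier3 by DESeq2, with the replicate block and in each single-library omission. Socs3, which the STAT3 pathway induces and which inhibits cytokine receptors, went the other way, from 18.1, 17.7 and 20.5 CPM in WT to 27.5, 26.9 and 26.1 CPM in Y (log2 fold change 0.52 ± 0.10 SE, edgeR adjusted p = 0.014). The 9 lower calls became 3 without Y3, 5 without WT2, Y1 or Y2, and 5 by DESeq2. Socs3 was called without WT3 and not when any other of the 6 libraries was left out.

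Genes that glucocorticoids induce split. Per1, Dusp1, Nfkbia, Tsc22d3, Ddit4 and Cxcr4 were lower and Fkbp5 was higher, 6 and 1 of 17 tested, and these counts held in each single-library omission. Tsc22d3 (GILZ) was at 129, 129 and 120.0 CPM in WT and 88.8, 90.7 and 87.1 CPM in Y (log2 fold change -0.51 ± 0.08 SE, edgeR adjusted p = 0.0041). Ddit4, an inhibitor of mTORC1, was at 39.3, 39.8 and 42.4 and 23.3, 23.2 and 18.5 CPM (log2 fold change -0.91 ± 0.11 SE, edgeR adjusted p = 1.74e-04). Both were lower in every Y library, and for both the ct libraries lay near WT, at 123, 130.4 and 136 and 37.2, 43.2 and 36.3 CPM. Fkbp5, a chaperone of the glucocorticoid receptor, was at 6.22, 5.57 and 6.79 CPM in WT and 11.6, 10.9 and 12 CPM in Y (log2 fold change 0.89 ± 0.14 SE, edgeR adjusted p = 0.0026), and in ct at 12.01, 14.5 and 11.6 CPM. Sgk1 (-0.24) and Zbtb16 (0.50) were not called. The list's median was -0.27. 3 of its 6 lower members are also in the immediate early or NF-kB lists, so these counts are not independent.

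Cxcr4, the receptor that holds leukocytes in bone marrow, was at 49.9, 50.8 and 55.4 CPM in WT and 32.3, 30.5 and 31.1 CPM in Y (log2 fold change -0.73 ± 0.09 SE, edgeR adjusted p = 1.64e-04). The ct libraries were at 45.1, 46.6 and 50.2 CPM, near WT. It was the 1 lower gene among 28 tested chemokine receptors and trafficking genes, and Cxcr2, which draws neutrophils out of marrow, was the 1 higher gene. Txnip, an inhibitor of thioredoxin and glucose uptake, was at 329, 328 and 315 CPM in WT and 223, 225 and 225 CPM in Y (log2 fold change -0.53 ± 0.08 SE, edgeR adjusted p = 0.003). Txnip, Kdm6b, Brd2 and Ets2 are in no list here and were named after their values were seen. Neat1, the long non-coding RNA that builds nuclear paraspeckles, was at 313, 296 and 283 and 179.8, 176 and 208 CPM (log2 fold change -0.66 ± 0.10 SE, edgeR adjusted p = 0.0026), the 1 call among 22 nuclear and abundant non-coding RNAs tested. Malat1, its neighbour on the chromosome, was not called (-0.05). Kdm6b, a histone demethylase that inflammatory signals induce, Brd2 and Ets2 had log2 fold changes of -0.51, -0.36 and -0.65, and none of the 3 was called without WT2, WT3, Y1 or Y3.

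Replication-dependent histone mRNAs, made in S phase and without poly(A) tails, had 61 tested members, of which 5 were lower, 0 higher and 56 not called, and 54 of the 61 had a negative fold change. Their summed level was 476 to 566 CPM in WT and 394 to 426 CPM in Y, and the median was -0.46. Hist2h3b was at 15.6, 12.7 and 12.3 CPM in WT and 9.38, 5.86 and 5.81 CPM in Y (log2 fold change -1.02 ± 0.17 SE, edgeR adjusted p = 0.0054). The other 4 were Hist1h2bk, Hist1h3b, Hist1h2ap and Hist1h3i. Near-identical histone copies can share reads, so a call on a single copy is uncertain, and without Y3 none of the 5 was called. Of 22 cell cycle genes tested, Top2a, the topoisomerase of dividing cells, was higher at 10.4, 11.02 and 10.2 CPM in WT and 18.3, 23.2 and 24.8 CPM in Y (log2 fold change 1.09 ± 0.17 SE, edgeR adjusted p = 0.0035). Cdkn1a, the cell cycle inhibitor p21, was lower, from 8.04 ± 1.26 to 4.15 ± 0.535 CPM (log2 fold change -0.95 ± 0.20 SE, edgeR adjusted p = 0.028), a call lost by DESeq2 and without any 1 of the 6 libraries other than WT2. The other 20 were not called.

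Of the stress genes, Hspa1b, an inducible HSP70, was at 7.75, 6.97 and 6.65 CPM in WT and 2.84, 3.77 and 3.61 CPM in Y (log2 fold change -1.03 ± 0.18 SE, edgeR adjusted p = 0.0062), and ct libraries held more, at 10.2, 8.09 and 10.2 CPM. Hspa1a, its near-identical copy, had -0.81 and was not called, and the authors' counting could split reads between them. Hspa5, the chaperone BiP of the endoplasmic reticulum, went from 72.2 ± 4.43 to 52.7 ± 2.47 CPM (log2 fold change -0.45 ± 0.08 SE, edgeR adjusted p = 0.011). These were 2 of 25 heat shock genes tested, the median being -0.16, and Hspa5 was not called without WT3, Y1 or Y3. In the unfolded protein list, Atf4, Hspa5 and Ppp1r15a were the 3 lower of 23. These are 8% and 13.04% of the lists, against 0.817% of all genes tested. The Atf4 call was lost in each single-library omission, and without WT3, Y1 or Y3 only Ppp1r15a was called.

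The neutrophil list had the highest median of the lists tested. Of 17 genes listed, 15 were tested, and of these 10 were higher in Y, 0 lower and 5 not called, with a median log2 fold change of 1.03. In 12 of the 15 all Y libraries lay above all WT libraries, as in 8.54% of all genes tested. Ly6g and Stfa2l1 had too few counts to test. The summed level of the 17 was 156 to 167 CPM in WT and 336 to 361 CPM in Y, a ratio of 2.18 (exact permutation test, two-sided p = 0.10, the smallest that 3 against 3 allows), and 164 to 178 CPM in ct. Without S100a8 and S100a9 the ratio was 1.66. Leaving out 1 library gave 8 to 10 calls.

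The calprotectin subunits had the smallest p of the list. S100a8 was at 15.8, 18.5 and 16.5 CPM in WT and 65.9, 70.3 and 68.8 CPM in Y, a fold change of 4.04 (log2 fold change 2.01 ± 0.10 SE, edgeR adjusted p = 4.10e-09). S100a9 was at 28.03, 30.3 and 31.7 and 100.4, 90.97 and 87.9 CPM, 3.10 in fold (log2 fold change 1.63 ± 0.10 SE, edgeR adjusted p = 6.61e-08). For both genes the lowest Y library held over 2 times the highest WT or ct library, ct being at 28.4, 24.9 and 29.8 CPM for S100a8 and 41.4, 35.1 and 42.9 CPM for S100a9. Per length the pair stood at 12.6 and 20.7 TPM in WT and at 45.1 and 57.3 TPM in Y. S100a6, a related calcium-binding protein that is not limited to neutrophils, was at 7.96, 9.12 and 7.35 and 14.2, 13.7 and 17.2 CPM (log2 fold change 0.89 ± 0.13 SE, edgeR adjusted p = 0.0014).

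Of the granule genes, Lcn2, which binds bacterial siderophores, was at 5.56, 3.80 and 3.68 CPM in WT and 14.6, 16.5 and 14.97 CPM in Y (log2 fold change 1.80 ± 0.16 SE, edgeR adjusted p = 7.75e-06), and the collagenase Mmp8 at 3.05, 2.53 and 2.40 and 13.1, 9.11 and 8.39 CPM (log2 fold change 1.87 ± 0.21 SE, edgeR adjusted p = 1.42e-04). The gelatinase Mmp9 was at 11.02, 11.8 and 14 and 27.3, 27.2 and 28.01 CPM (log2 fold change 1.17 ± 0.11 SE, edgeR adjusted p = 1.21e-05). None of these overlapped between the groups, and the Mmp9 values in Y lay within 1 CPM of each other. Ngp rose from 7.40 ± 0.482 to 13.2 ± 2.20 CPM (log2 fold change 0.82 ± 0.15 SE, edgeR adjusted p = 0.011), and Wfdc21 from 0.702 ± 0.166 to 3.03 ± 0.451 CPM (log2 fold change 2.10 ± 0.35 SE, edgeR adjusted p = 0.0042). Ngp was not called without WT2, Y1 or Y2, and Wfdc21 not without Y2. Camp, at 1.64, 1.90 and 2.55 and 2.18, 1.17 and 2.84 CPM, and Ltf, at 6.55, 6.21 and 5.80 and 7.86, 7.94 and 9.04 CPM, both of secondary granules, were not called, with log2 fold changes of 0.04 and 0.42.

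The secreted and surface genes of mature neutrophils were mixed. Retnlg was at 15.1, 11.1 and 15.98 CPM in WT and 28.1, 27.98 and 28.3 CPM in Y (log2 fold change 1.00 ± 0.12 SE, edgeR adjusted p = 1.64e-04), Cxcr2 at 7.75, 8.61 and 8.201 and 13.7, 13.3 and 14.2 CPM (log2 fold change 0.75 ± 0.12 SE, edgeR adjusted p = 0.0042), and Cd177, an adhesion partner, at 4.69, 4.81 and 4.81 and 8.51, 11.3 and 9.55 CPM (log2 fold change 1.06 ± 0.15 SE, edgeR adjusted p = 0.0015). All Y libraries were above all WT libraries for the 3. Csf3r, the G-CSF receptor, did not move with them, at 47.1, 44.3 and 48.1 CPM in WT and 52.8, 50.9 and 42.5 CPM in Y (0.06 ± 0.09, SE). Il1r2 (0.30) was not called either, and Clec4d had 1.03 with an edgeR adjusted p of 0.13.

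**Figure D3:**
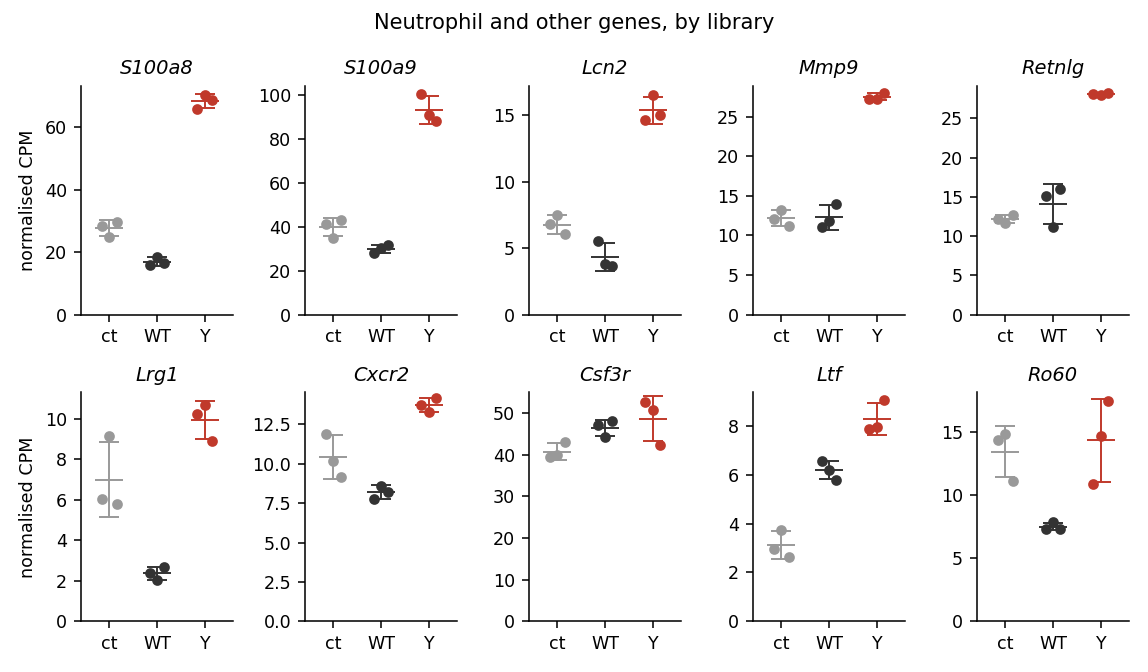
Normalised CPM of 8 neutrophil-list genes and of Lrg1 and Ro60 in each of the 9 libraries (points) with the group mean and SD (bars), on axes from 0. S100a8, S100a9, Lcn2, Mmp9 and Retnlg lie above WT and ct in every Y library, while Csf3r overlaps between Y and WT.

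Of the 51 higher genes, 33 were in none of the lists. Some of these are described here, of which Cd300lf, Fpr1, Fpr2 and Vcan were named after their values were seen. Which of the 33 belong to which cell type was not tallied. Lrg1, a secreted glycoprotein of liver and neutrophil granules, was at 2.40, 2.03 and 2.69 CPM in WT and 10.3, 10.7 and 8.91 CPM in Y (log2 fold change 2.06 ± 0.21 SE, edgeR adjusted p = 4.90e-05). Anxa1, an anti-inflammatory annexin, was at 6.11, 5.70 and 7.35 and 12.7, 14.1 and 14.6 CPM (log2 fold change 1.13 ± 0.14 SE, edgeR adjusted p = 2.36e-04), and Alox5ap, the partner of 5-lipoxygenase in leukotriene synthesis, at 17.5, 12.9 and 14.8 and 28.4, 25.9 and 26.2 CPM (log2 fold change 0.82 ± 0.11 SE, edgeR adjusted p = 8.39e-04). The groups were apart for all 3. Mmp25, Pygl, Cd300lf and Lilr4b had log2 fold changes of 1.41, 0.94, 0.89 and 0.70. The formyl peptide receptors Fpr1 and Fpr2 had 1.92 and 1.27, haptoglobin Hp 0.72, and Vcan, a proteoglycan of monocytes, 2.41. Their levels in Y were 2.30 ± 0.433 CPM for Fpr1, 4.67 ± 0.450 CPM for Fpr2, 18.1 ± 3.13 CPM for Hp and 2.85 ± 1.13 CPM for Vcan (SD, n = 3). Fpr1, Fpr2, Hp and Vcan lost the call in some alternatives and the other 7 in none.

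No gene of the monocyte list was called higher, and Vcan, given above, is outside that list. Of 19 tested, 4 were lower, 0 higher and 15 not called. Fold changes were negative in 12 and positive in 7, the largest log2 value being 0.63. The median was -0.21, but -0.11 without Y2 and -0.34 without Y3. The summed level was 556 to 573 CPM in WT, 459 to 484 CPM in Y and 497 to 528 CPM in ct. With rRNA left out of the total and no TMM scaling, the groups nearly met, at 1042 to 1265 CPM in WT and 962 to 1040 CPM in Y. Ly6c2, which marks classical monocytes, was at 13.5, 13.8 and 14.3 CPM in WT and 8.29, 8.72 and 7.36 CPM in Y (log2 fold change -0.77 ± 0.13 SE, edgeR adjusted p = 0.004). Csf1r, the M-CSF receptor, was at 40.8, 41.9 and 42.4 and 30.99, 30.5 and 29.4 CPM (log2 fold change -0.46 ± 0.09 SE, edgeR adjusted p = 0.013). Ace, a gene of patrolling monocytes, was at 50.5, 50.5 and 49.3 and 40.2, 38.1 and 36.4 CPM (log2 fold change -0.40 ± 0.09 SE, edgeR adjusted p = 0.042). These 3 were apart between the groups. Nr4a1 is the fourth and is also in the NR4A list. None of the 4 was called without Y3. The Csf1r call was also lost without WT2, WT3, Y1 or Y2, and that of Ace by DESeq2, with the replicate block and in each single-library omission. Lyz2, Ccr2, Cd14 and Cx3cr1 had log2 fold changes of -0.22, 0.06, 0.08 and -0.34 and were not called.

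The NK cell markers summed to 166 to 184 CPM in WT and 141 to 145 CPM in Y, with ct at 144 to 150 CPM. With rRNA left out of the total and no TMM scaling, these groups also nearly met, at 320 to 413 CPM in WT and 292 to 319 CPM in Y. Of 14 NK genes tested, Ccl5 alone was called, at 19.5, 25.3 and 20.9 CPM in WT and 13.5, 14.8 and 11.6 CPM in Y (log2 fold change -0.72 ± 0.12 SE, edgeR adjusted p = 0.0053), and not without Y3. 12 of the 14 had a negative fold change, against 5794 of all 11635 genes tested, the median being -0.36. Gzma, Prf1, Il2rb and Tbx21 had log2 fold changes of -0.37, -0.40, -0.35 and -0.94 with edgeR adjusted p from 0.082 to 0.27. Ifng, the cytokine of NK and T cells, had 8 to 11 counts in the WT libraries and 2 to 5 in the Y libraries, too few to test. Of 14 cytotoxic effector genes tested, Ccl5 and Ccl4 were lower, and neither without Y3.

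Of 17 platelet genes tested, 2 were higher (11.8%, against 0.438% of all genes tested), 0 lower and 15 not called. All 17 had a positive fold change, against 5841 of all 11635 genes tested, the median being 0.28. The platelet sum was 698 to 792 CPM in WT and 849 to 905 CPM in Y, below the 1104 to 1152 CPM of ct. Clec1b, the receptor CLEC-2, was at 9.05, 9.63 and 10.9 CPM in WT and 15.9, 14.2 and 14.5 CPM in Y (log2 fold change 0.59 ± 0.13 SE, edgeR adjusted p = 0.042), and Alox12, the platelet lipoxygenase, at 33.2, 29.6 and 31.1 and 42.1, 40.5 and 39.4 CPM (log2 fold change 0.37 ± 0.08 SE, edgeR adjusted p = 0.038). Neither overlapped, and both calls were lost without WT2, WT3, Y1, Y2 or Y3. The defining genes Pf4, Ppbp and Itga2b had log2 fold changes of 0.22, 0.18 and 0.32, not called. Outside the list, 3 genes were named after their values were seen. Thbs1, a platelet alpha granule protein, was at 50.8, 56.9 and 62.4 CPM in WT and 87.3, 81.3 and 80.9 CPM in Y (log2 fold change 0.55 ± 0.09 SE, edgeR adjusted p = 0.004), and ct held 105, 108 and 110.2 CPM. Rgs18 had 0.65, and like Thbs1 it was called in every alternative. The serotonin transporter Slc6a4 had 0.54, a call lost by DESeq2, with the replicate block and without any 1 of the 6 libraries other than Y3.

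**Figure D4:**
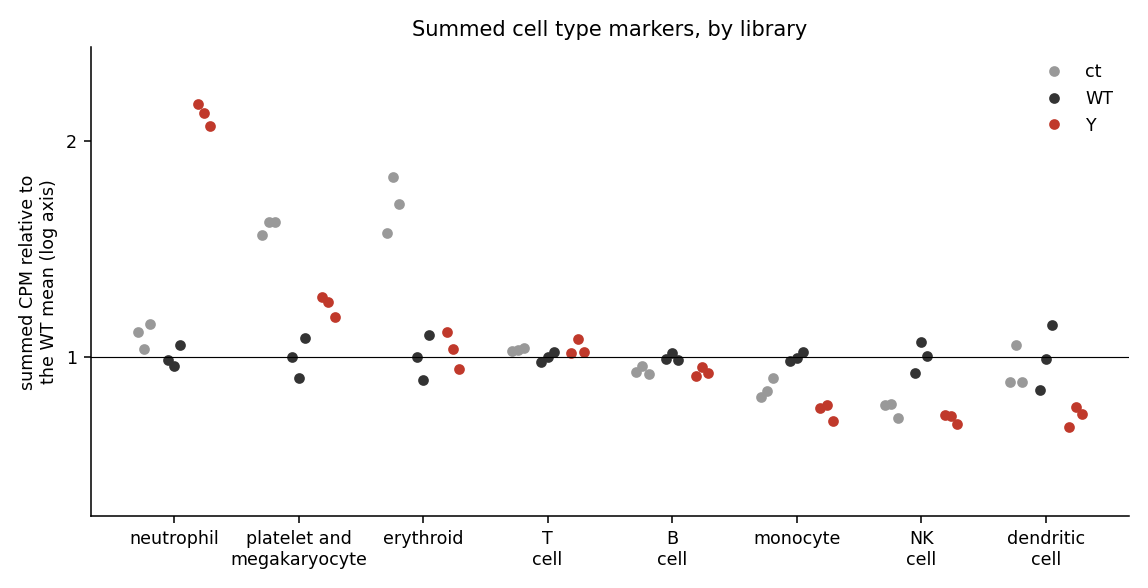
Summed CPM of 8 marker lists in each library, divided by the WT mean of that list, on a log axis. Neutrophil sums of Y lie near 2 times the WT mean, platelet sums lie above WT in Y and further above in ct, and monocyte, NK and dendritic cell sums of Y lie below all WT sums.

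The B cell, T cell and erythroid lists gave no call. B cell genes (16 tested) summed to 575 to 588 CPM in WT and 545 to 561 CPM in Y, T cell genes (19) to 665 to 687 and 686 to 716 CPM, and erythroid genes (13) to 4407 to 5088 and 4567 to 5149 CPM. The smallest edgeR adjusted p were 0.15, 0.39 and 0.17, and the medians -0.01, 0.07 and 0.05. Pax5, the B cell master factor, and Cd3e had log2 fold changes of -0.19 and 0.17. Summed B cell markers of Y lay below all WT sums (ratio 0.953), as did plasma cell markers (0.867). With rRNA left out of the total and no TMM scaling, 2 changes made at once, both sums overlapped between the groups. Plasma and dendritic cell genes (7 and 6 tested) also gave none, and of 3 tested basophil and eosinophil genes Ccr3, the eotaxin receptor, was higher (2.73, 1.65 and 2.55 CPM in WT, 5.89, 5.73 and 4.13 CPM in Y, log2 fold change 1.15 ± 0.27 (SE), edgeR adjusted p = 0.045), a call that no single-library omission kept.

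The series title names innate immunity, so interferon and RNA sensing genes are given separately. Of 49 interferon-stimulated genes tested, 1 was lower, Irf1 (51.2, 49.8 and 52.7 CPM in WT, 38.8, 40.1 and 40.8 CPM in Y, log2 fold change -0.36 ± 0.08 (SE), edgeR adjusted p = 0.03), 0 were higher and 48 were not called. The Irf1 call was lost in each single-library omission. The median was -0.05 and the sums were 728 to 757 CPM in WT and 708 to 729 CPM in Y. Isg15 was at 3.16, 4.31 and 4.38 and 2.84, 4.03 and 3.36 CPM and Ifit1 at 3.05, 2.91 and 4.67 and 2.62, 2.86 and 4.00 CPM. Both overlapped between the groups, with log2 fold changes of -0.17 ± 0.22 and -0.11 ± 0.25 (SE). Ifnb1 had 0 counts in all 6 libraries, which allows up to 0.640 CPM of the unscaled total in Y1 and 0.331 to 0.426 in the others, for counting error only.

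Of 29 RNA sensors and adaptors tested, 1 was higher, 0 were lower and 28 were not called. The higher one was Ro60, which binds misfolded RNAs and the small Y RNAs. Ro60 was at 7.31, 7.85 and 7.35 CPM in WT and 10.9, 14.7 and 17.4 CPM in Y, above WT in every Y library (log2 fold change 0.97 ± 0.16 SE, edgeR adjusted p = 0.0042), and ct was at 14.4, 14.8 and 11.2 CPM, within the range of Y. The call was lost without Y3, the library with most. Its RNA partners are counted over small genes. Rny1 was at 118, 132 and 135 CPM in WT and 177, 167 and 179.8 CPM in Y, and Rny3 at 154, 173 and 229 and 204, 199 and 193 CPM. The Y libraries lay above WT for Rny1 and overlapped it for Rny3, and neither was called (0.45 ± 0.14 and 0.10 ± 0.14, SE, with edgeR adjusted p of 0.2 and 0.87). Ssb, the La protein that binds the Y RNA tail, was at 6.33, 6.84 and 4.10 and 6.33, 5.47 and 6.84 CPM (0.09 ± 0.20, SE). Tlr7, Ddx58, Ifih1 and Mavs had 0.17, -0.05, -0.05 and 0.15.

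Housekeeping lists gave no call: cytosolic ribosomal proteins (82 tested, median 0.01), translation factors (60, median 0.00), nuclear oxidative phosphorylation subunits (76, -0.05), mitochondrially encoded RNAs (37, 0.10), proteasome (31, -0.09), splicing factors (33, -0.07), iron and redox genes (23, 0.05) and phagocytosis genes (18, 0.05). The mitochondrially encoded RNAs took 1.92 to 2.91% of counts in WT, 2.91 to 3.26% in Y and 2.80 to 3.45% in ct, and RNAs annotated as snoRNA 1.80 to 2.18%, 2.20 to 2.46% and 1.60 to 2.39%. For both shares the Y libraries lay above the WT libraries (exact permutation test, two-sided p = 0.10), but by little. The lowest Y share was 2.915% (Y2) against 2.907% in WT2 for mitochondrially encoded RNAs, and 2.201% (Y1) against 2.177% in WT1 for snoRNA. The part of these shares in the changes of other genes was not tested. MHC class II genes (15 tested) gave none at a median of -0.14. Of 23 MHC class I and peptide loading genes, H2-Q6 and H2-Q7 were lower (-0.41 and -0.37), and both calls were lost in each single-library omission and with the replicate block. H2-Q10 (-0.75) was outside the list and named after its value was seen. These Qa genes are close paralogs, so reads may be split between them. The lists with 10 or more tested members are set side by side in the plot of gene lists.

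**Figure D5:**
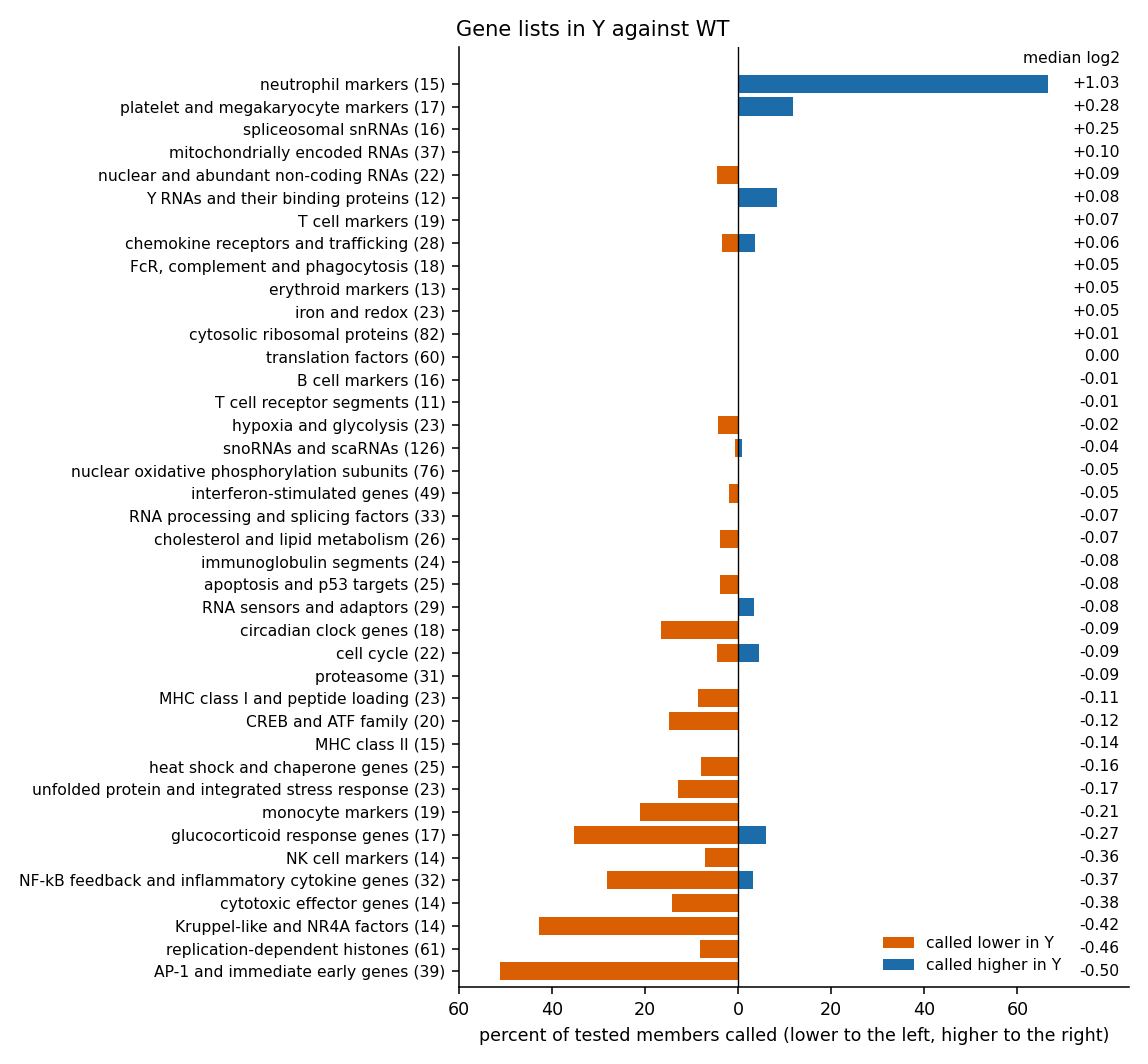
Percent of tested members called lower (left) and higher (right) in Y for each list with at least 10 tested members, whose number is in brackets, with the list's median log2 fold change at the right edge. The immediate early, Kruppel-like and NR4A, glucocorticoid and NF-kB lists extend furthest left and the neutrophil list furthest right.

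Among small RNAs, 126 snoRNAs and scaRNAs listed by symbol were tested, and 1 was higher, Snord90 (47.5, 33.4 and 35.3 CPM in WT, 64.8, 55.3 and 60.8 CPM in Y, log2 fold change 0.63 ± 0.14 (SE), edgeR adjusted p = 0.039), and 1 lower, Snord100 (-0.59). Over all 272 tested genes annotated as snoRNA, 3 were higher (1.10%) and 2 lower (0.735%), and none of these was called without Y3. Of 16 spliceosomal snRNA genes by symbol none was called. Over all 157 tested genes annotated as snRNA, 6 were lower (3.82%) and 0 higher, and none of the 6 was called without Y3. Of these, Gm23928 was at 10.9, 25.1 and 15.3 CPM in WT and 5.46, 5.34 and 5.16 CPM in Y, and Gm24305 at 3746, 3031 and 3844 and 2469.9, 2076 and 2518 CPM (log2 fold change -0.59 ± 0.14 SE, edgeR adjusted p = 0.042). The Gm24305 call was kept in only 1 of the 6 single-library omissions, that of WT2, and this gene was named after its value was seen. WT2 held the most Gm23928, and near-identical snRNA copies can share reads. The class as a whole took 5.53 to 7.10% of counts in WT and 6.42 to 7.57% in Y.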

How the data were processed

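Total RNA was extracted from mouse blood PBMC with Direct-zol columns and made into libraries with NEBNext Ultra II DNA reagents, as the labels give it. The submitters' processing notes name Trim Galore, STAR, featureCounts and RSEM and the builds mm10 and hg38, with no versions or order. The authors deposited for each library a gene table of RSEM estimated counts (expected counts) and of TPM values, which RSEM scales by transcript length.

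Expected counts of all 55335 listed genes were rounded to whole numbers. Genes were kept by the filterByExpr rule over the 9 libraries (11635 kept). Counts were scaled by TMM and tested with edgeR 4.0.16 (R 4.3.3), with a quasi-likelihood fit of all 9 libraries sharing 1 estimate of spread and the contrast Y minus WT. The biological coefficient of variation was 0.101, and p-values were adjusted by Benjamini-Hochberg over all genes tested, with calls at 0.05. CPM values use the TMM-scaled totals, and TPM served only to set levels of different genes side by side. Summed markers and shares were compared by a two-sided exact permutation test. The fit was tested on simulated data. Gene positions and types came from GENCODE M21 by identifier (54587 matched), and promoters from RefSeq by symbol.

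Named genes were, per direction, the 15 largest called changes with separate groups and a mean of at least 10 CPM, the 10 smallest p, and up to 4 called members of each of 44 lists (or the 2 smallest p), plus Y RNA and interferon genes. The comparison, lists and motifs were chosen with earlier results of these data known. Surface RNA tables were not used here. Alternatives tried were DESeq2 1.42.0, other scalings and filters, fewer libraries and a replicate block. Intervals and limits from counts cover counting error only.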

Additional observations from a re-analysis of the deposited data

How the results depend on the processing

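Direction held for the 66 named genes that were called in each alternative in which they were tested (62 had a test value by DESeq2 and 47 had a mean of at least 10 CPM). All 4 reversals were in genes not called. When 1 library was left out, the log2 fold change of Ifit1 ran from -0.34 to 0.11 (positive without WT3), that of Rny3 from -0.016 to 0.28 (negative without WT1) and that of Ssb from -0.085 to 0.22 (negative without WT3, and -0.0032 without Y3). Fitting the 6 WT and Y libraries alone gave 78 higher genes, and no filter on low counts, which tested 29571 genes, gave 132 higher and 234 lower. Leaving out 1 library gave 26 to 36 higher and 26 to 112 lower genes, 9 to 19 lower immediate early genes, 3 to 7 lower NF-kB genes and 8 to 10 higher neutrophil genes. DESeq2 called 5 lower NF-kB genes, and a minimum mean of 10 CPM left 6 neutrophil genes tested, of which 5 were called. DESeq2 over all genes called 34 higher and 65 lower. Scaling by RLE size factors or upper quartile, or without rRNA and mitochondrial genes, gave 51 to 55 higher and 93 to 98 lower.

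Same-numbered WT and Y libraries did not deviate together (r = -0.01, -0.03 and -0.04 across genes, which are not independent replicates), so the numbers were taken as names only. A fit with a replicate block gave 46 higher and 82 lower genes. Y1, at 4686387 counts, had the least depth, and the median standard error of a log2 fold change was 0.20, which holds both counting error and the spread between libraries. The cause of the changes between settings was not tested.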
